A study of Mus with 18 samples.

Results

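The alpha and beta crystallins are the 8 genes Cryaa, Cryab, Cryba1, Cryba2, Cryba4, Crybb1, Crybb2 and Crybb3, chosen by their Ensembl gene IDs from a named list of this family, and all 8 were found among the 55416 gene IDs of the count tables. RNA was sequenced from mouse lens capsules with the attached lens epithelial cells (LECs), taken either directly after surgical removal of the fiber cell mass (0 h) or 6 h post cataract surgery (PCS). The 18 libraries fell into 6 groups of 3, namely wild type (WT), Egr1KO and FosBcKO, each at 0 h and at 6 h PCS. All mice were labelled C57BL/6 and were 3 to 5 months old. The Egr1KO mice carried a systemic, homozygous Egr1 null allele made by a neo cassette insertion in exon 2. The FosBcKO mice carried floxed Fosb alleles deleted in the lens by MLR10 Cre, a transgene driven by a modified Cryaa promoter, so that its driver comes from a gene described here. Each library pooled 5 capsules. The eye operated first gave the 6 h capsule and the other eye of the same mouse gave the 0 h capsule. Total gene counts were 9609295 to 13871592 read pairs per library, and the crystallin counts ran from 791 to 740976 read pairs, so that counting error was small beside the spread between replicates.

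Crystallins are the abundant soluble proteins that give the lens its refractive power. The alpha crystallins belong to the small heat shock protein family and act as chaperones that hold partly unfolded proteins in solution, whereas the beta crystallins are structural proteins of the beta/gamma superfamily that assemble with one another into oligomers. Beta crystallin expression rises as LECs differentiate into fiber cells, and the crystallins are therefore common readouts of lens cell identity. Levels are given as CPM, the count of a gene per 1000000 read pairs counted in genes of that library. CPM is not divided by gene length, so levels were compared between libraries and not between genes. In whole-capsule RNA, fewer cells of a type and less RNA per cell cannot be told apart.

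The 8 crystallins together took a large share of the libraries at 0 h and a much smaller share at 6 h PCS. In WT they made up 14.9%, 17.2% and 14.8% of gene counts in the 0 h libraries and 5.48%, 7.41% and 1.54% in the 6 h libraries. The last of these shares, in WT 6 h replicate 3, had a 95% Wilson interval of 1.54% to 1.55%, which covers counting error only, and lay far below those of the other libraries of its group. The mean share was 15.9% ± 1.60 (SD, n = 3) at 0 h and 5.59% ± 1.07 at 6 h in Egr1KO, and 14.3% ± 1.78 at 0 h and 4.69% ± 1.57 at 6 h in FosBcKO. Cryaa, Crybb2, Cryab and Cryba1 were 4 of the 10 gene IDs with the highest mean CPM over all libraries. This ranks read counts without regard to gene length, and not transcript levels.

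Both alpha crystallins were lower at 6 h PCS than at 0 h in every genotype. Cryaa (ENSMUSG00000024041), which encodes the chaperone alpha A crystallin, stood at 58256, 65868 and 57314 CPM in the WT 0 h libraries and at 23222, 31476 and 6377 CPM in the WT 6 h libraries. In Egr1KO, Cryaa was 56870.5, 57162 and 66519.9 CPM at 0 h and 29046, 18460.5 and 22733 CPM at 6 h. In FosBcKO, Cryaa was 52509, 51403 and 60711 CPM at 0 h and 13187, 22266 and 24354 CPM at 6 h. No 6 h library reached the lowest 0 h library of its genotype, and the 6 h mean was 33.7%, 38.9% and 36.3% of the 0 h mean in WT, Egr1KO and FosBcKO. Cryab (ENSMUSG00000032060) encodes alpha B crystallin, a stress-inducible chaperone that is also made outside the lens, in heart and skeletal muscle. It stood at 22685, 23683 and 20288 CPM in WT at 0 h and at 10574, 13139 and 3407 CPM at 6 h. The Cryab mean passed from 22874 ± 1417 to 9976 ± 1689 CPM (SD, n = 3) in Egr1KO and from 20817 ± 3061 to 7854 ± 3040 CPM (SD, n = 3) in FosBcKO. Again the 0 h and 6 h libraries did not overlap within any genotype.

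The acidic beta crystallins included the gene with the largest relative decrease of the family. Cryba4 (ENSMUSG00000066975), an acidic beta crystallin gene, stood at 2128, 2458 and 2120.3 CPM in the WT 0 h libraries and at 239, 407 and 75.4 CPM in the WT 6 h libraries. In Egr1KO it was 2172, 1884 and 2709 CPM at 0 h and 239.6, 407 and 280.4 CPM at 6 h. In FosBcKO it was 1851, 1657 and 2501 CPM at 0 h and 220.1, 353 and 540.4 CPM at 6 h. The 6 h mean of Cryba4 was thus 10.8%, 13.7% and 18.5% of the 0 h mean in WT, Egr1KO and FosBcKO, with a wide gap between the times in each genotype. Cryba1 (ENSMUSG00000000724), whose transcript yields the beta A3 and beta A1 proteins from alternative start codons, was at 8491, 8613 and 7577 CPM in WT at 0 h and at 1726, 2354 and 372 CPM at 6 h. Its 6 h mean was 18.04%, 22.3% and 23.9% of the 0 h mean in the 3 genotypes. In the knockouts the Cryba1 means at 0 h and 6 h were 8135 ± 1212 and 1817 ± 134 CPM in Egr1KO and 7336 ± 1268 and 1756 ± 815 CPM in FosBcKO (SD, n = 3). Cryba2 (ENSMUSG00000006546), the remaining acidic member, kept more of its 0 h level, with 27.9% in WT, 35.6% in Egr1KO and 32.2% in FosBcKO. Its WT libraries ranged from 5686 to 7134 CPM at 0 h and from 564 to 2699.9 CPM at 6 h. The Cryba2 means were 6196 ± 778 and 2205 ± 513 CPM in Egr1KO and 5426 ± 779.6 and 1749 ± 545 CPM in FosBcKO.

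Among the basic beta crystallins, Crybb2 (ENSMUSG00000042240), the main beta crystallin gene of the adult lens, was at 47684, 60598.5 and 51929 CPM in WT at 0 h and at 15591, 22308 and 4228 CPM at 6 h. In Egr1KO the Crybb2 mean was 55245 ± 6283 CPM at 0 h and 16731 ± 3042 CPM at 6 h, and in FosBcKO it was 48560.2 ± 6485 and 14107 ± 4954 CPM (SD, n = 3). Its 6 h mean was 26.3%, 30.3% and 29.0% of the 0 h mean in WT, Egr1KO and FosBcKO. Crybb1 (ENSMUSG00000029343), a beta crystallin that takes part in the large beta oligomers and whose promoter is used to drive transgenes in fiber cells, kept 20.7%, 26.4% and 25.0% of its 0 h mean. In WT, Crybb1 was at 1514, 1623 and 1397 CPM at 0 h and at 345, 495 and 98.7 CPM at 6 h. The knockout means of Crybb1 were 1477 ± 278 and 391 ± 38.3 CPM in Egr1KO and 1431 ± 314 and 357 ± 143 CPM in FosBcKO at 0 h and 6 h. Crybb3 (ENSMUSG00000029352), the third basic member, was at 40.0%, 45.6% and 38.0% of its 0 h mean. Its WT libraries held 2435, 2238 and 1729 CPM at 0 h and 1039, 1197 and 322 CPM at 6 h. Its knockout means passed from 2236 ± 459 to 1019 ± 70.8 CPM in Egr1KO and from 2136 ± 567 to 811 ± 251 CPM in FosBcKO. For all 8 genes in all 3 genotypes, every 6 h library lay below every 0 h library. The share of all tested genes with such a separation downward was 19.8% in WT, 25.2% in Egr1KO and 20.1% in FosBcKO.

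**Figure D1:**
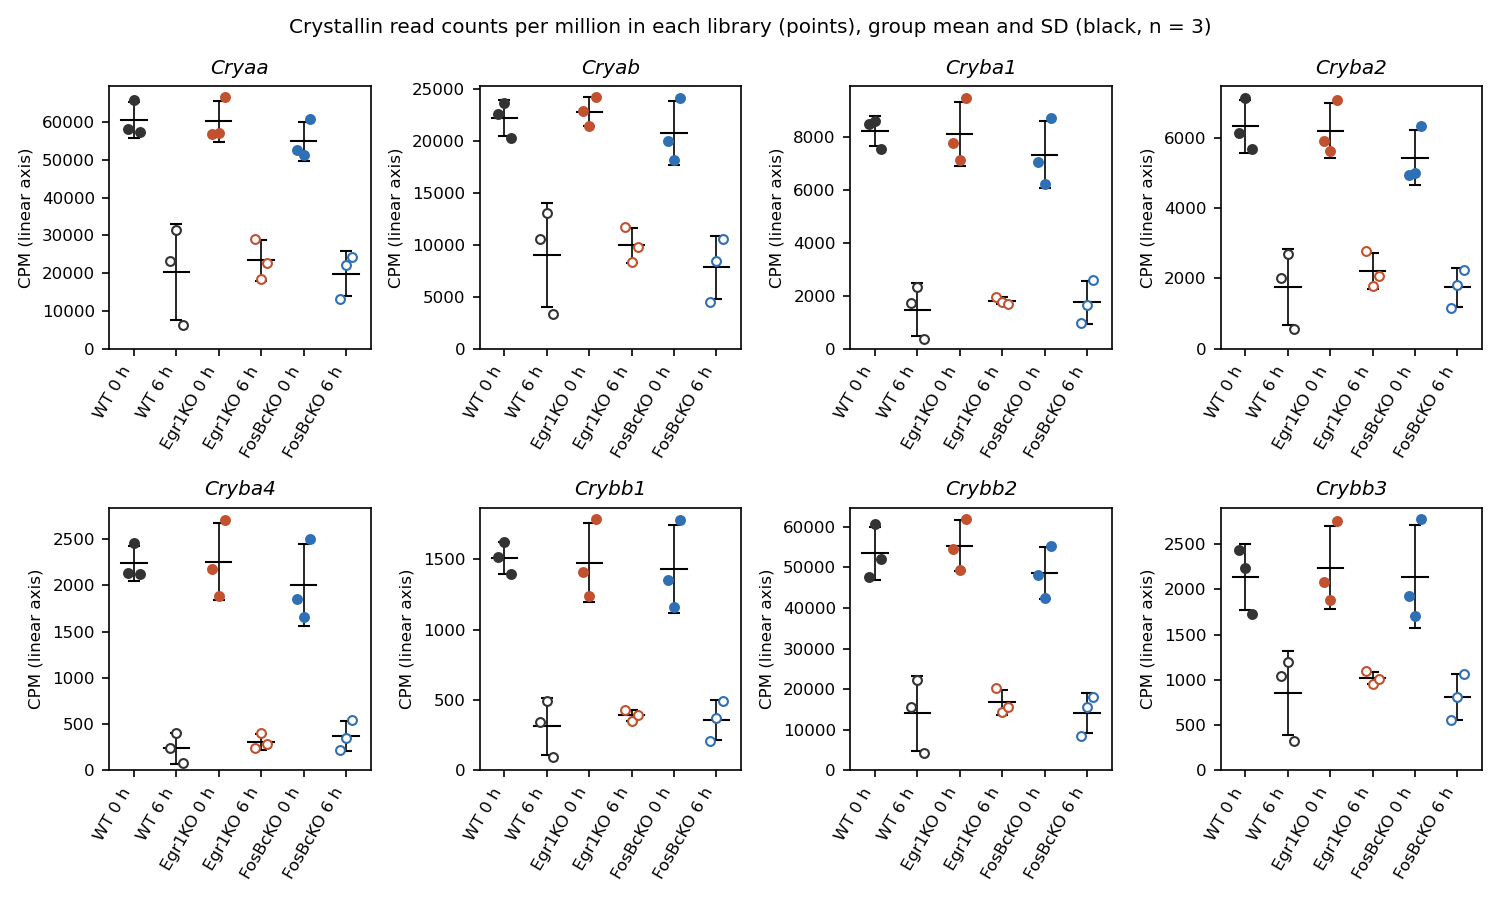
CPM of the 8 crystallins in each of the 18 libraries, 1 panel per gene with its own linear axis from 0. Filled points are 0 h and open points 6 h libraries, black bars show the group mean ± SD (n = 3). In each panel the open points lie below the filled points of the same genotype, and the lowest open point is WT 6 h replicate 3 (75.4 CPM for Cryba4).

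The order of the relative decreases was nearly the same in the 3 genotypes, which share no libraries in these comparisons. By the ratio of the 0 h mean to the 6 h mean, Cryba4 came first (9.30-fold lower at 6 h in WT, 7.30-fold in Egr1KO and 5.40-fold in FosBcKO), followed by Cryba1, Crybb1, Crybb2, Cryba2 and Cryaa. Cryab and Crybb3 took the last places, in one order in WT (2.46-fold and 2.50-fold lower) and the opposite order in Egr1KO (2.29-fold and 2.19-fold) and FosBcKO (2.65-fold and 2.63-fold). The ranks of 6 of the 8 genes were therefore identical across genotypes.

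The 6 h libraries were compared with the 0 h libraries of the same genotype by the edgeR quasi-likelihood F-test, and a gene was called a differentially expressed gene (DEG) where it changed by more than 2-fold with an FDR (false discovery rate, Benjamini-Hochberg, over all genes tested) no higher than 0.05. In WT, 4 of the 8 crystallins (Cryba4, Crybb1, Cryba1 and Cryba2) were DEGs, all lower at 6 h, in this test without pairing. Of all 15440 genes tested, 3.65% were DEGs in the downward direction. The log2 fold changes were -3.29 ± 0.59 (SE, FDR 0.00765) for Cryba4, -2.34 ± 0.55 (FDR 0.0199) for Crybb1, -2.54 ± 0.63 (FDR 0.0227) for Cryba1 and -1.91 ± 0.55 (FDR 0.0362) for Cryba2. The remaining WT values missed the FDR threshold, with -1.997 ± 0.64 (FDR 0.0504) for Crybb2, -1.40 ± 0.48 (FDR 0.0646) for Crybb3, -1.64 ± 0.62 (FDR 0.0841) for Cryaa and -1.37 ± 0.53 (FDR 0.0903) for Cryab. The 95% intervals of these 4 genes lay below 0 and were wide, from -3.07 to -0.21 for Cryaa. The WT count of 4 was smaller without replicate 1 of either time (1) or without 0 h replicate 2 or 3 (2) and larger without 6 h replicate 3 (6), and without a low-count filter the calls of Cryba1, Cryba2, Cryba4 and Crybb1 were lost (FDR 0.0614 to 0.122) and those of Crybb2, Cryaa and Cryab gained (FDR 0.00306, 0.00707 and 0.00984). Same-numbered WT libraries deviated together, and with the replicate number as a block all 8 crystallins were called in WT, Cryaa at -1.94 (FDR 0.0334) and Cryab at -1.60 (FDR 0.0327), while the edgeR exact test and DESeq2 without the block also called 8.

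In Egr1KO all 8 crystallins fell at 6 h PCS by the quasi-likelihood F-test, against a downward DEG share of 2.69% among the 14586 genes tested. Among the alpha crystallins, the log2 fold change was -1.30 ± 0.23 (SE, FDR 0.00917) for Cryaa and -1.13 ± 0.20 (FDR 0.00895) for Cryab. The acidic beta crystallins Cryba4, Cryba1 and Cryba2 changed by -2.83 ± 0.23, -2.11 ± 0.18 and -1.43 ± 0.23, with the edgeR FDR at 0.000596, 0.000800 and 0.00673. The basic members Crybb1, Crybb2 and Crybb3 changed by -1.86 ± 0.20, -1.66 ± 0.22 and -1.08 ± 0.20. Without 0 h replicate 3 of Egr1KO the count was 5, with Cryaa, Cryab and Crybb3 no longer called. In one fit of all libraries it was 6, as Cryab (FDR 0.0505 by the quasi-likelihood F-test) and Crybb3 (FDR 0.0588) missed the threshold. The count was also 6 without 6 h replicate 2 and 7 without 6 h replicate 3.

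In FosBcKO all 8 crystallins fell as well, against a downward DEG share of 1.9% among the 15475 genes tested. Cryaa changed by -1.45 ± 0.30 (SE, FDR 0.0107 by the quasi-likelihood F-test) and Cryab by -1.40 ± 0.32 (FDR 0.0158) on the log2 scale. Cryba4, Cryba1 and Cryba2 changed by -2.43 ± 0.34, -2.06 ± 0.34 and -1.63 ± 0.27, and Crybb1, Crybb2 and Crybb3 by -1.996 ± 0.33, -1.77 ± 0.33 and -1.40 ± 0.29. The median log2 fold change over the 8 crystallins was -1.96 in WT, -1.54 in Egr1KO and -1.70 in FosBcKO, where the median over all genes tested was -0.02, 0.00 and 0.05.

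**Figure D2:**
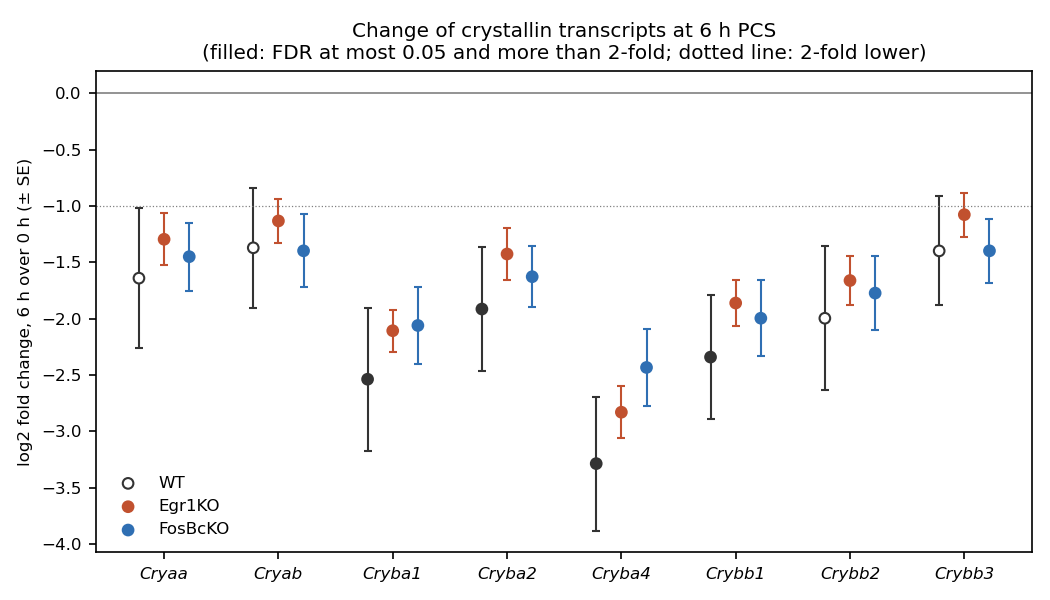
Log2 fold change of each crystallin at 6 h PCS over 0 h in WT, Egr1KO and FosBcKO, with bars of ± 1 SE. Values are from the edgeR quasi-likelihood fit without pairing (6 libraries per fit). Filled points were DEGs and open points were not, and all points lie below the dotted line of a 2-fold decrease, from -3.29 for Cryba4 in WT to -1.08 for Crybb3 in Egr1KO.

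Because all 8 genes were counted in the same libraries, the composition of the crystallin transcripts can be read within each library, free of the scaling between libraries. Composition was expressed as read pairs of a gene per 100 read pairs of Cryaa, which describes changes relative to Cryaa only. Cryba4 stood at 3.65, 3.73 and 3.70 per 100 Cryaa read pairs in the WT 0 h libraries and at 1.03, 1.29 and 1.18 in the WT 6 h libraries. In Egr1KO the ratio was 3.82, 3.30 and 4.07 at 0 h and 0.83, 2.20 and 1.23 at 6 h, and in FosBcKO it was 3.52, 3.22 and 4.12 at 0 h and 1.67, 1.58 and 2.22 at 6 h. Over all 18 libraries the 0 h values of Cryba4 (3.22 to 4.12) and the 6 h values (0.825 to 2.22) did not overlap. Cryba1 behaved alike, with 12.1 to 14.6 per 100 at 0 h and 5.83 to 10.7 at 6 h, as did Crybb1 with 2.17 to 2.93 and 1.47 to 2.02. Crybb2 passed from 81.9 to 96.0 per 100 at 0 h to 64.8 to 78.4 at 6 h, which is a smaller shift but again without overlap.

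Cryba2, Cryab and Crybb3 differed in how they moved relative to Cryaa. Cryba2 averaged 10.4, 10.3 and 9.86 per 100 Cryaa read pairs at 0 h and 8.70, 9.42 and 8.77 at 6 h in WT, Egr1KO and FosBcKO, lower in every 6 h library than in the 0 h libraries of its genotype. For Cryab, the other chaperone, and for Crybb3 the mean ratio was higher at 6 h than at 0 h in each genotype. The Cryab ratio to Cryaa was 38.9, 36.0 and 35.4 per 100 in WT at 0 h and 45.5, 41.7 and 53.4 at 6 h, so every WT 6 h library lay above every WT 0 h library. In Egr1KO the mean ratio was also higher (38.1 ± 1.95 at 0 h and 43.0 ± 2.46 at 6 h, SD, n = 3). The Egr1KO libraries were only just apart, with a highest 0 h value of 40.26 and a lowest 6 h value of 40.35. The libraries overlapped in FosBcKO (37.8 ± 2.22 and 38.6 ± 4.41). The mean Crybb3 ratio was 3.53 and 4.44 per 100 in WT, 3.69 and 4.46 in Egr1KO and 3.85 and 4.08 in FosBcKO at 0 h and 6 h, and the libraries of both times overlapped in each genotype. With 3 libraries against 3, these ratios are given as a description without a test. The share of all genes with such a separation relative to Cryaa is not given here. Cryba4 and Crybb1 are neighbours on chromosome 5 whose annotated gene bodies overlap, and whether reads were counted by strand is not given in the sources used here, so their counts are uncertain where they overlap.

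**Figure D3:**
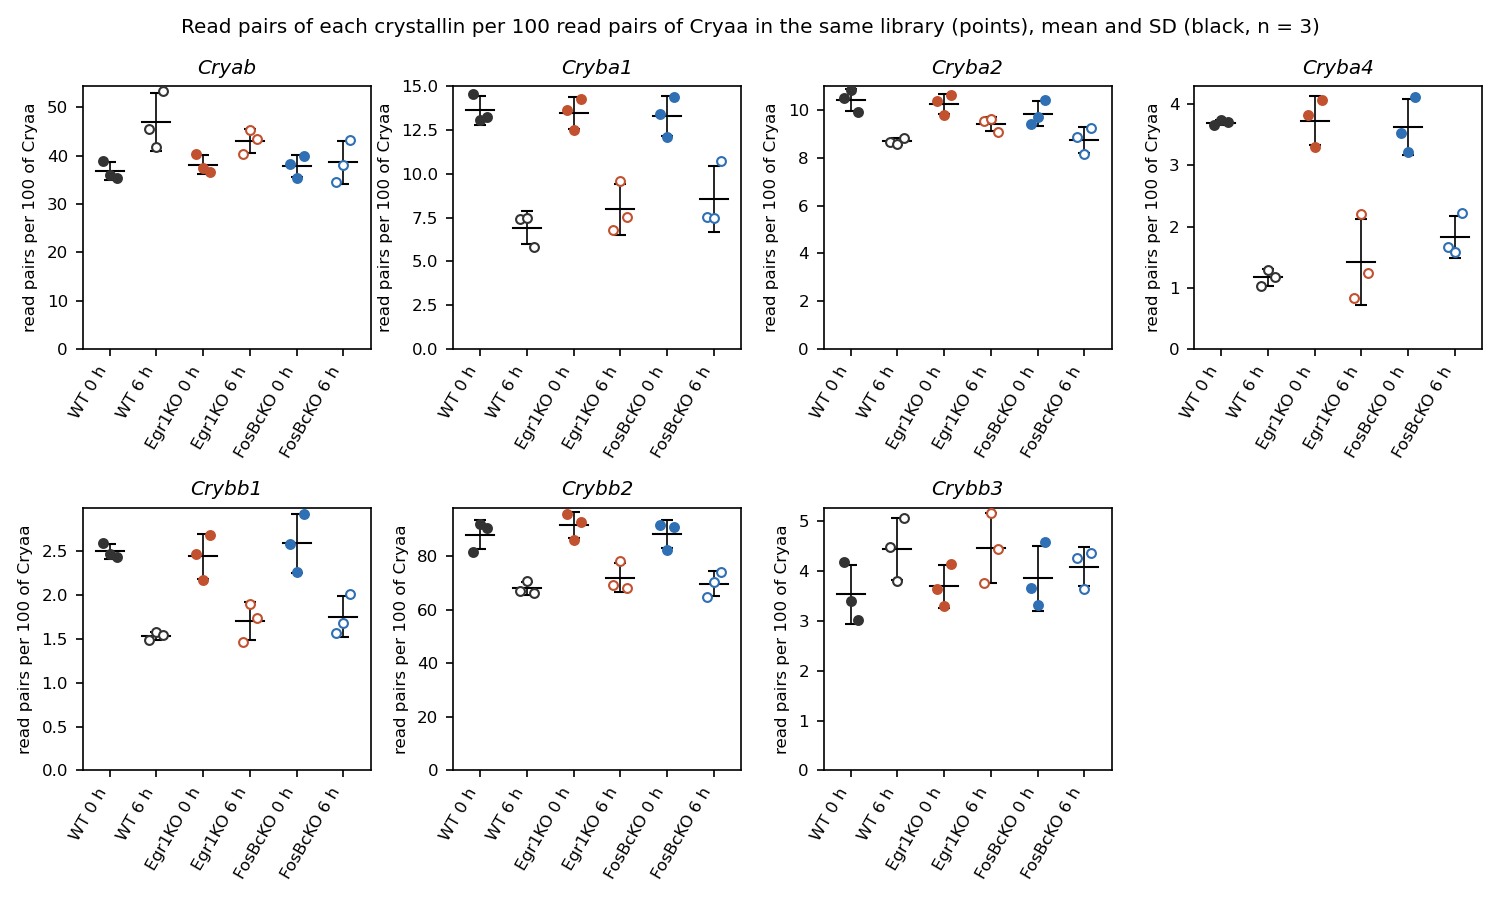
Read pairs of 7 crystallins per 100 read pairs of Cryaa in the same library, on linear axes from 0, with filled points for 0 h, open points for 6 h and black bars for the group mean ± SD (n = 3). Cryba1, Cryba4, Crybb1 and Crybb2 sit lower in all 6 h libraries than in any 0 h library. Cryab sits higher at 6 h in WT and, only just without overlap, in Egr1KO, and Crybb3, with higher 6 h means, overlaps.

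The WT 6 h group had the widest spread of crystallin levels, with coefficients of variation from 54.6% for Crybb3 to 69.0% for Cryba4, where the WT 0 h group had 6.88% to 17.1%. WT 6 h replicate 3 was the lowest of all 9 libraries of 6 h for each of the 8 genes, lying between -1.63 and -1.19 log2 units from its group mean. FosBcKO 6 h replicate 1 was also low for all 8 genes, by -0.71 to -0.48. Relative to Cryaa, WT 6 h replicate 3 was close to its group for some genes and apart for others. It had the highest Cryab ratio (53.4 per 100 Cryaa read pairs) and the lowest Cryba1 ratio (5.83) of all 18 libraries. Cryba2 was at 8.68, 8.58 and 8.85 per 100 Cryaa read pairs in the WT 6 h libraries, with a coefficient of variation of 1.57% beside 62.0% for its CPM. For Cryba4 these coefficients were 11.4% and 69.0%. Log2 CPM of the crystallins was correlated across the 18 libraries with Pearson's r between 0.935 and 0.998 over the 28 pairs of genes, and the deviations from group means with r between 0.846 and 0.994. These correlations are descriptive, since all points share libraries, scaling and, for the former, the difference between 0 h and 6 h. The deviations were largest in WT 6 h replicate 3 (median -1.37 over the 8 genes), which therefore weighs heavily in the correlations of deviations. Without WT 6 h replicate 3, the WT log2 fold change was -1.19 for Cryaa (FDR 0.00153 by the quasi-likelihood F-test) and -2.84 for Cryba4 (FDR 0.00100), and 6 crystallins were DEGs. In that fit Cryab (-0.954, FDR 0.00245) and Crybb3 (-0.983, FDR 0.00397) met the FDR threshold but not the 2-fold minimum.

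The next comparison addressed whether crystallin levels differed with loss of Egr1 or Fosb directly after the surgery (0 h) or at 6 h PCS. At 0 h the genotypes were close to WT. Cryaa averaged 60480 ± 4691 CPM in WT, 60184 ± 5489 in Egr1KO and 54874 ± 5085 in FosBcKO (SD, n = 3), and for each of the 8 genes the 3 groups overlapped. By the edgeR exact test no crystallin was a DEG at 0 h in Egr1KO or in FosBcKO, where 0.41% and 0.295% of all genes tested were DEGs in either direction. The log2 differences from WT ran from -0.00 for Crybb1 to 0.09 for Crybb3 in Egr1KO and from -0.22 for Cryba2 to 0.00 for Crybb3 in FosBcKO. The 95% intervals, from the quasi-likelihood fit of the same libraries, were narrowest for Cryab in Egr1KO (-0.14 to 0.27) and widest for Crybb3 in FosBcKO (-0.60 to 0.60). A 2-fold difference at 0 h lay outside the interval of every crystallin in both knockouts.

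At 6 h PCS the intervals were much wider. Egr1KO values were above WT by 0.33 for Cryab to 0.52 for Cryba4 on the log2 scale, with intervals that together spanned -1.02 to 1.83. Without WT 6 h replicate 3, the values of Cryab (-0.080), Cryaa (-0.054), Crybb2 (-0.014) and Cryba1 (-0.0056) turned to the other side of 0. FosBcKO values differed from WT by -0.09 for Cryab to 0.72 for Cryba4, the latter with an interval of -0.61 to 2.06. None of the 8 passed the exact test in either knockout (edgeR FDR 0.852 to 0.917 in Egr1KO and 0.642 to 1.00 in FosBcKO), and DEGs in either direction made up 0.736% and 5.41% of all genes tested. The median difference over the 8 was 0.46 in Egr1KO and 0.10 in FosBcKO, beside 0.03 and 0.00 over all genes tested. These medians rested on single WT libraries, with 0.01 and -0.37 without WT 6 h replicate 3, and 0.99 and 0.61 without WT 6 h replicate 2. In FosBcKO, 6 of the 8 values turned negative without WT 6 h replicate 3, from -0.16 for Cryba1 to -0.41 for Crybb3. The groups at 6 h overlapped for every crystallin, and 2-fold differences in either direction were within the reach of several intervals. In these 4 genotype comparisons 0 of 8 crystallins had an unadjusted p under 0.05 in the edgeR exact test. Among all genes, 818 of 14556 tested (FosBcKO at 0 h) to 2664 of 16155 (FosBcKO at 6 h) did. A result of 0 of 8 therefore does not set the crystallins apart. The quasi-likelihood F-test and DESeq2 also called 0 of 8. Both knockouts were compared with the same WT libraries, so their differences from WT are not independent.

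An interaction term over all 18 libraries asked whether a knockout changed the size of the 6 h decrease. The fit gave all groups a shared estimate of the spread, although the groups differed in it. The SD of log2 CPM was 1.04 to 1.43 over the crystallins in WT at 6 h and 0.10 to 0.39 in Egr1KO at 6 h. The interaction was 0.21 for Cryab to 0.46 for Cryba2 in Egr1KO and -0.08 for Cryab to 0.80 for Cryba4 in FosBcKO, where a positive value means a smaller decrease than in WT. The largest, Cryba4 in FosBcKO, had a 95% interval of -0.59 to 2.19 (FDR 0.849 by the quasi-likelihood F-test). With the filter and all libraries, no crystallin and no other gene passed, a called share of 0%, while 1141 genes in Egr1KO and 1171 in FosBcKO had an unadjusted p under 0.05, none of them crystallins. The count over all genes depended on the setting, with 0 in Egr1KO and 31 in FosBcKO by DESeq2, 264 and 406 by the quasi-likelihood F-test without a low-count filter, and 24 in FosBcKO without WT 0 h replicate 2, none of them crystallins. A crystallin that fell in the knockouts and missed the threshold in the WT test without pairing, such as Cryaa or Cryab, was therefore not shown to respond differently.

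**Figure D4:**
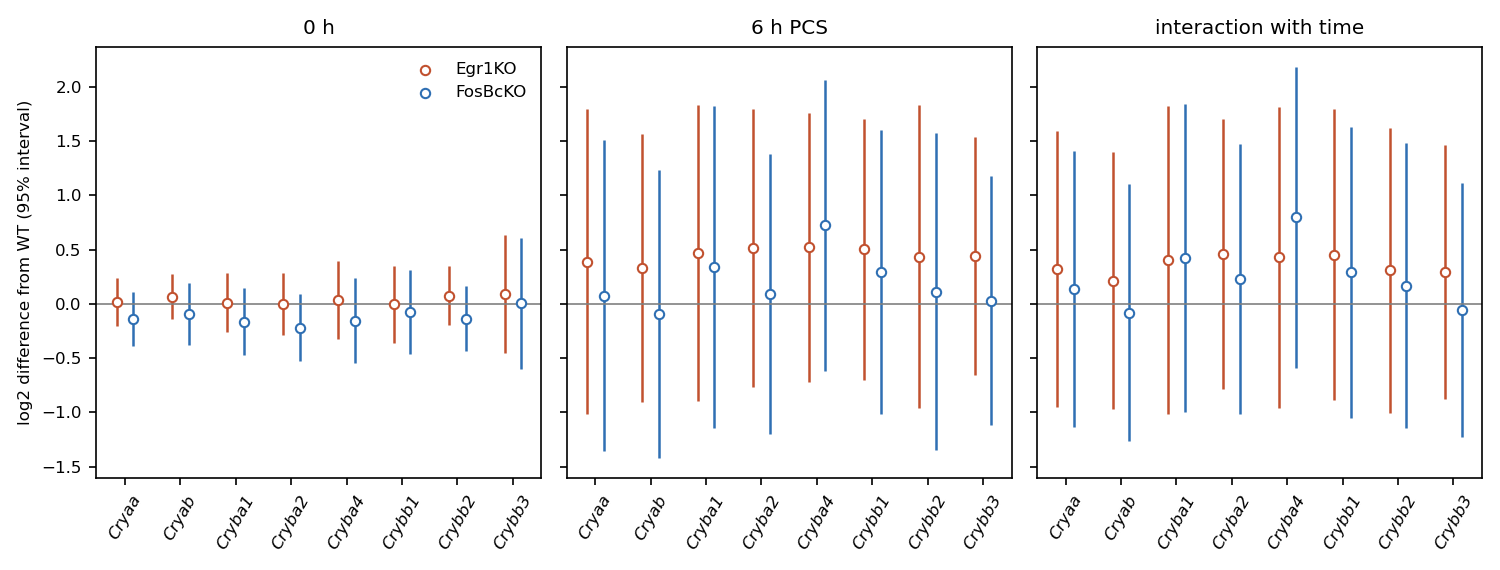
Log2 difference of each crystallin from WT in Egr1KO and FosBcKO at 0 h and at 6 h PCS, and the interaction of genotype with time, as estimates (points) with 95% intervals (lines) from the edgeR quasi-likelihood fits. All intervals include 0, and those at 6 h and of the interactions, which reach 2.06 and 2.19, are wider than those at 0 h.

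Among 13524 other genes with an average log2 CPM of at least 1, the genes whose log2 CPM followed the mean of the 8 crystallins most closely over the 18 libraries were ENSMUSG00000033501 (Pearson's r = 0.997) and ENSMUSG00000027610 (r = 0.992), which are given by ID as the tables do not pair them with names. ENSMUSG00000033501 averaged 5461 ± 356 CPM in WT at 0 h and 1249 ± 776 at 6 h, 5356 ± 689 and 1293 ± 85.9 in Egr1KO, and 4864 ± 740.3 and 1274 ± 536 in FosBcKO (SD, n = 3). ENSMUSG00000027610 averaged 234 ± 21.6 CPM in WT at 0 h and 70.8 ± 39.1 at 6 h. Both were lower at 6 h, with a wide spread among the WT 6 h libraries. They were chosen for this correlation over the same libraries, so their likeness to the crystallins follows from the choice.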

How the data were processed

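Stranded libraries of ribodepleted RNA were sequenced in pairs by the authors, who aligned the reads with Hisat2 and used HTSeq-count in union mode. The deposited tables hold raw, unnormalized counts, 1 value per Ensembl gene ID. The study's methods name GRCm38 and the submitters' processing notes GRCm39, so no coordinates are given. Overlapping genes lose ambiguous pairs (0.940% to 1.37% of pairs per library), and no molecular identifiers are stated, so PCR copies count separately. HTSeq summary lines were left out, pairs outside genes making up 8.03% to 30.5%.

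Groups and replicate numbers came from the sample labels. Replicates differed by more than sampling noise, and no library was counted as a copy of another. Genes were filtered with filterByExpr and TMM factors (trimmed mean of M values) computed in edgeR 4.0.16 (R 4.3.3) with robust dispersions, using the 6 libraries of each contrast and all 18 for the interactions. The quasi-likelihood F-test, named by the study for its first analysis, served 6 h against 0 h. It gave 2645 DEGs in either direction in WT, well above the number the study reports with an earlier edgeR version. The reason was not tested. The exact test served knockout against WT, as in the study's later analyses. The interactions were added here. P-values were adjusted over all genes tested. DESeq2 1.42.0 was an alternative, as were other scalings, filters, fits and omitted libraries. The statistics were tested on simulated data with a fixed spread, smaller than that of the crystallins among the WT 6 h libraries. That check does not show how they behave at the larger spread. Same-numbered 0 h and 6 h libraries of WT deviated together across genes (r = 0.108, 0.261 and 0.270). All 8 members are named in every comparison, and the 2 most similar other genes of 4 selected. The members and lists were chosen with earlier results of these data known. The RefSeq table at hand (GRCm38.p6) matched 0 gene IDs, so Egr1 and Fosb, other lens genes, cell type markers and gene lengths are not analysed here, and the knockout labels and the tissue were not checked by such genes. Chromosome and overlap of the members were read from that table by symbol.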

Additional observations from a re-analysis of the deposited data

How the results depend on the processing

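All 8 crystallins kept a negative log2 fold change at 6 h PCS in every genotype under every alternative run (144 values per genotype). In WT the 4 called crystallins became 8 with the exact test, DESeq2, one fit of all libraries or the replicate block, 5 with RLE size factors, without TMM or with scaling that leaves out the crystallins, and 3 others (Cryaa, Cryab and Crybb2) without a filter. The cause was not tested. With each library of a contrast left out once, the called crystallins numbered 1 to 6 (WT), 5 to 8 (Egr1KO) and 7 to 8 (FosBcKO). Genotype and interaction counts were 0 under every alternative. Same-numbered libraries correlated above 0.1 in 1 of 3 pairs in Egr1KO, 2 of 3 in FosBcKO and 3 of 12 across genotypes, and the replicate block changed no call there. With all read pairs as denominator the share of the 8 was 9.06% at 0 h in WT, 10.2% and 3.21% at 0 h and 6 h in Egr1KO, and 8.74% and 2.63% in FosBcKO. Scaling without TMM moved the median of all genes to 0.09 in WT at 6 h against 0 h, -0.18 and -0.12 in Egr1KO and FosBcKO against WT at 6 h, and -0.12 in the Egr1KO interaction. With 3 pooled libraries per group, the 6 h intervals against WT spanned -1.42 to 2.06 on the log2 scale.

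Differences from WT and interactions, none of which was called, often turned sign under other settings. Some of the values that turned were near 0 in the main fit and others were not, such as 0.47 for Cryba1 in Egr1KO at 6 h. For Egr1KO over WT at 0 h, the log2 value was -0.0082 for Cryaa and -0.017 for Cryba1 without TMM, -0.0013 for Cryba1 with scaling that leaves out the crystallins, -0.00059 with the filter of 10 counts and -0.0012 with the replicate block, and 0.021 for Cryba2 and 0.019 for Crybb1 in one fit of all libraries. For FosBcKO over WT, Crybb3 at 0 h was -0.024 with the replicate block. At 6 h, Crybb3 was -0.0036 with DESeq2, -0.072 without TMM and -0.045 in one fit of all libraries, Cryaa was -0.030 without TMM and -0.0014 in that fit, Cryba2 was -0.0082 without TMM and Cryab 0.0041 with the replicate block. In the FosBcKO interaction the replicate block gave 0.070 for Cryab and 0.15 for Crybb3. The cause was not tested. Leaving out 1 library at a time also turned signs, and the log2 values are given here as ranges. In Egr1KO over WT at 0 h they ran from -0.092 to 0.10 for Cryaa, -0.0092 to 0.14 for Cryab, -0.15 to 0.12 for Cryba1, -0.14 to 0.11 for Cryba2, -0.15 to 0.18 for Cryba4, -0.20 to 0.13 for Crybb1, -0.046 to 0.19 for Crybb2 and -0.12 to 0.23 for Crybb3. In Egr1KO over WT at 6 h they ran from -0.054 to 0.89 for Cryaa, -0.080 to 0.74 for Cryab, -0.0056 to 1.01 for Cryba1 and -0.014 to 0.98 for Crybb2. In FosBcKO over WT at 0 h they ran from -0.23 to 0.014 for Cryab, -0.28 to 0.072 for Crybb1 and -0.25 to 0.16 for Crybb3. In FosBcKO over WT at 6 h they ran from -0.40 to 0.57 for Cryaa, -0.53 to 0.31 for Cryab, -0.16 to 0.88 for Cryba1, -0.37 to 0.58 for Cryba2, -0.17 to 0.83 for Crybb1, -0.36 to 0.65 for Crybb2 and -0.41 to 0.39 for Crybb3. In the Egr1KO interaction they ran from -0.082 to 0.81 for Cryaa, -0.16 to 0.61 for Cryab, -0.028 to 0.93 for Cryba1, -0.10 to 0.84 for Crybb2 and -0.074 to 0.65 for Crybb3. In the FosBcKO interaction they ran from -0.32 to 0.62 for Cryaa, -0.51 to 0.32 for Cryab, -0.063 to 0.95 for Cryba1, -0.22 to 0.71 for Cryba2, -0.17 to 0.82 for Crybb1, -0.29 to 0.70 for Crybb2 and -0.48 to 0.30 for Crybb3.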
